A study of Mus musculus with 18 samples.

Results

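The comparison covers the kidney cortex of BALB/c mice against that of 129/svj mice, all challenged with anti-GBM antibodies, which bind the glomerular basement membrane and induce glomerulonephritis. Its 8 arrays came from 6 mice, of 18 arrays from 15 mice in the whole study, and were taken by strain from the one deposited table that holds both strains. Each strain had 3 mice, each 2 months old. The fourth array of a strain is labelled as a replicate of its first, and both were averaged as mouse 1. The labels call BALB/c resistant and 129/svj sensitive to anti-GBM disease. DBA1, the other sensitive strain of that table (3 mice, 4 arrays), is given beside some results and was not pooled with 129/svj. The labels name no transgene, sex, dose, or time after the challenge, and no unchallenged mice were analysed here, so that strain differences before the challenge and in the response to it cannot be told apart. The animals within a strain are inbred, so the p-values rest on the spread between genetically alike mice.

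In anti-GBM glomerulonephritis, antibody bound along the glomerular basement membrane engages Fc receptors and complement, leukocytes enter the glomerulus, and reactive oxygen species add to the damage. Glutathione S-transferases, among them Gstm2, join glutathione to reactive compounds and help to remove peroxides. The kidney cortex consists largely of proximal tubules, which take back filtered sugar, peptides, and ions, with glomeruli and parts of the distal nephron between them.

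Signals are given as levels, on the log2 scale after background correction and quantile normalization over the 8 arrays, and differences as BALB/c minus 129/svj on the same scale. A probe counts as detected where its signal stood above the negative control beads at a detection p of 0.05 or less. Between 30.45% and 34.15% of the probes of an array were detected. Over the tested probes, repeat arrays of a mouse correlated at 0.988 to 0.989 (2 pairs), different mice of a strain at 0.960 to 0.983 (10 pairs), and the strains with each other at 0.936 to 0.957 (16 pairs). The tissue label fits its markers, since Slc27a2, Slc34a1, Lrp2, and Slc12a1, transporters and receptors of the tubules, had levels of 12.71 to 14.80 in every mouse. Mouse 3 of 129/svj stood apart in most of the macrophage genes tested. Over the 5 macrophage genes tested, its mean level was 8.45, against 6.53 and 7.16 in the other 129/svj mice and 6.46 to 7.24 in BALB/c. Csf1r, 1 of the 5, went the other way, at 7.30 in mouse 3 against 7.60 and 7.73 in the other 129/svj mice. Where a difference of an immune gene is given, its value without that mouse stands beside it, except at second probes. This step was chosen after the data had been seen.

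Of the 14745 probes tested, 771 (5.23%) differed between the strains at an adjusted p below 0.05 in limma, 389 of them (2.64%) higher in BALB/c and 382 (2.59%) higher in 129/svj. A difference of at least 1 on the log2 scale was reached by 491 of these and one of at least 2 by 155. Over all probes tested, the median difference was 0.02. At 3302 probes (22.4%), the mice of the strains did not overlap. With 1 probe a gene, 6.01% of the 5405 named genes passed, 167 (3.09%) higher in BALB/c and 158 (2.92%) higher in 129/svj, and counts of called members of the gene lists are set against these shares. The number of called probes fell to 476 without BALB/c mouse 2 and to 512 without 129/svj mouse 1. A difference in level and a difference of the strains in the sequence under a probe cannot be told apart on these arrays. In bulk tissue, fewer cells of a type and less RNA per cell cannot be told apart either.

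**Figure D1:**
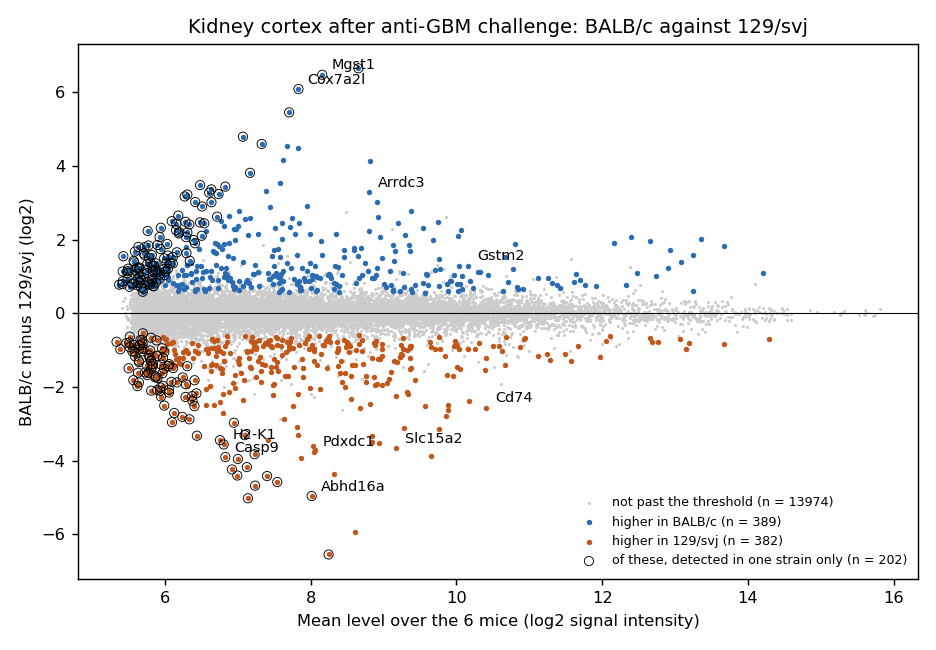
Difference of each tested probe between the strains (BALB/c minus 129/svj, log2) against its mean level over the 6 mice (log2 signal intensity). Blue and orange points are the 389 and 382 probes past an adjusted p of 0.05, grey points the others, and circles the 202 called probes detected in one strain only, which lie at low mean levels.

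Gstm2, which encodes a Mu class glutathione S-transferase and is the gene that the study followed, was measured by 3 probes, and all 3 were higher in BALB/c. For probe GI_31982315-S, the levels were 10.81, 10.87, and 10.74 in BALB/c mice 1 to 3 and 9.66, 9.56, and 9.32 in 129/svj mice 1 to 3. Every BALB/c mouse lay above every 129/svj mouse. The difference was 1.29 (SE 0.14, adjusted p = 0.00121 in limma), a 2.44-fold higher signal. Probe scl0014863.1_0-S gave 10.49, 10.67, and 10.30 against 9.55, 9.41, and 9.36, a difference of 1.05 (SE 0.15, adjusted p = 0.00452). Probe scl014863.1_325-S gave 12.29, 12.28, and 12.31 against 11.72, 11.58, and 11.35, a difference of 0.74 (SE 0.14, adjusted p = 0.0211). At each probe the strains did not overlap, and an exact permutation test (two-sided, 20 splits of the 6 mice) gave p = 0.1, which no design of this size can go below. Probe scl014863.1_325-S was the least firm of them. Its call was lost without BALB/c mouse 1 (adjusted p = 0.0812), BALB/c mouse 2 (0.0911), BALB/c mouse 3 (0.0767), or 129/svj mouse 2 (0.0516), whereas the other probes stayed past the threshold without any one mouse. DBA1 had means of 9.33, 9.02, and 11.16 at the same probes, and between 129/svj and DBA1 none of the probes was called (adjusted p = 0.68, 0.297, and 0.212), against 4.37% of all tested probes called in that comparison.

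The study listed oxidation genes from these same arrays, so that their direction on the arrays is no independent evidence. Apart from the arrays, the paper reports quantitative PCR of Gstm2 and of representative oxidation genes in the strains. The 17 probes of that list were read here as 14 named genes. With the brightest probe of each, 3 of these were higher in BALB/c (Mgst1, Oxr1, and Gstm2) and 4 higher in 129/svj (Fmo4, Aldh1a1, Nosip, and Cyp4b1), against 6.01% of all named genes, and the median difference was 0.04. Mgst1, a microsomal glutathione transferase, had levels of 11.61, 11.48, and 11.09 in BALB/c and 5.07, 5.03, and 4.67 in 129/svj, where it was detected in no mouse. It was at least 53.1-fold higher in BALB/c (adjusted p = 1.05e-06), a bound, since an undetected signal was replaced by the dimmest one that still counted as detected on that array. Beside every such bound, the adjusted p belongs to the measured difference in limma and does not test the bound. DBA1, at a mean of 11.51, had Mgst1 at about the level of BALB/c. Oxr1, a gene known for protecting cells against oxidative damage, was at 8.96, 8.79, and 8.72 in BALB/c and 6.39, 6.68, and 6.10 in 129/svj, a difference of 2.44 (SE 0.18, adjusted p = 0.0001185). Here the mean of DBA1, 6.67, lay with 129/svj.

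Fmo4, a flavin-containing monooxygenase, was detected in no BALB/c mouse (5.02, 5.02, and 5.07) and in every 129/svj mouse (8.44, 8.39, and 8.60). It was at least 6.95-fold higher in 129/svj (adjusted p = 4.55e-06). Aldh1a1, a retinaldehyde dehydrogenase that forms retinoic acid, was at 7.85, 7.82, and 7.80 in BALB/c and 9.61, 9.91, and 9.57 in 129/svj, a difference of -1.87 (SE 0.14, adjusted p = 0.000151). DBA1 was at 10.06 for Aldh1a1 and at 5.59 for Fmo4 (detected in 2 of 3 mice), so that it lay near 129/svj for the first and near BALB/c for the second. Both probes of Nosip, an interactor of nitric oxide synthase, were higher in 129/svj, by differences of -1.04 (SE 0.16, adjusted p = 0.00738) and -1.34 (SE 0.16, adjusted p = 0.00208). Cyp4b1, a cytochrome P450 of the proximal tubule, differed by -0.77 (SE 0.15, adjusted p = 0.0238). Its call was lost without BALB/c mouse 2 (0.0865) or 3 (0.0735) and without 129/svj mouse 1 (0.0831), 2 (0.0651), or 3 (0.0523).

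The other oxidation genes did not pass. Mt1 and Mt2, the metallothioneins, had differences of 0.79 (SE 0.27, adjusted p = 0.188) and 1.13 (SE 0.45, adjusted p = 0.264), and in both the 129/svj mouse 3 was the highest of its strain (14.25 for Mt1 and 9.88 for Mt2). Without that mouse the difference of Mt1 was 1.06 (adjusted p = 0.0428). Atox1, a copper chaperone, differed by 0.35 (adjusted p = 0.307), and Alox12, a lipoxygenase, by -0.54 (adjusted p = 0.1985). The probes that the study listed for Cyp51, Sod3, and Haao had differences of 0.05, -0.06, and -0.17 with overlapping mice. Beyond Gstm2 and Mgst1, the 4 other glutathione S-transferases tested (Gsta3, Gstm7, Gstt2, and Mgst3) lay between -0.46 and 0.47, and none passed. Of 12 antioxidant and Nrf2 target genes tested, Nqo1, a quinone reductase, was the one called, against 6.01% of all named genes. It was at 8.53, 8.36, and 8.49 in BALB/c and 9.27, 9.06, and 9.46 in 129/svj, a difference of -0.80 (SE 0.15, adjusted p = 0.0191) that lost its call without any one BALB/c mouse (0.0603 to 0.0985) or 129/svj mouse 1 (0.0771). The other 11, among them Sod1, Sod2, Gpx1, Gpx4, and Prdx3, lay between -0.42 and 0.30. The Sod1 probe was dim, at 5.76 to 6.48 in BALB/c and 5.72 to 6.01 in 129/svj. The dimmest signals that counted as detected were at 5.57 to 5.77, so that the difference of Sod1 says little.

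**Figure D2:**
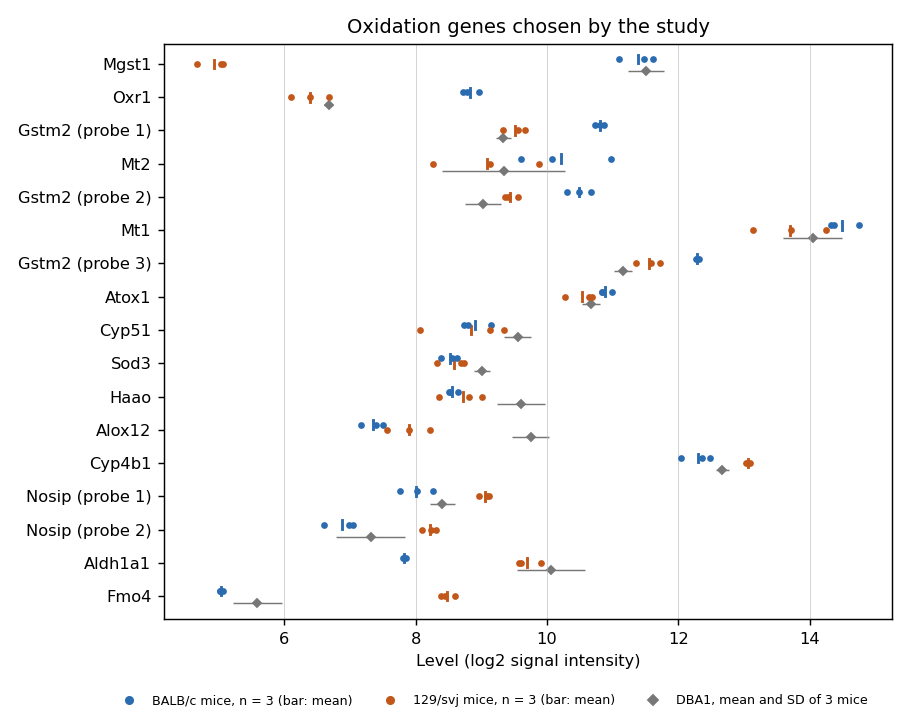
Levels (log2 signal intensity, horizontal axis) of the 17 probes of the oxidation genes that the study chose, 1 row a probe, ordered by the difference between the strains. Points are mice and bars strain means. Diamonds are the DBA1 means with their SD. Mgst1 and Fmo4 have the widest gaps between BALB/c and 129/svj, and the DBA1 mean of Mgst1 (11.51) lies with BALB/c.

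The reference promoters of Gstm2 and Mgst1, the transferases that were called, are shown for context. They run from 250 bases before to 50 bases after the start in RefSeq (GRCm38.p6, the C57BL/6J genome, and neither of these strains). Capitals mark the core of the antioxidant response element, to which Nrf2 binds, searched as TGACNNNGC and, on the other strand, GCNNNGTCA. It was found in 12.4% of 27025 promoters of that length. The Gstm2 window (chr3:107986371-107986670, minus strand) holds no match, and that of the first listed Mgst1 start (chr6:138140277-138140576, plus strand) holds 1, on the opposite strand, beginning 56 bases before the start. The window of a second Mgst1 start (chr6:138141337-138141636, plus strand), not printed, holds no match.
Gstm2: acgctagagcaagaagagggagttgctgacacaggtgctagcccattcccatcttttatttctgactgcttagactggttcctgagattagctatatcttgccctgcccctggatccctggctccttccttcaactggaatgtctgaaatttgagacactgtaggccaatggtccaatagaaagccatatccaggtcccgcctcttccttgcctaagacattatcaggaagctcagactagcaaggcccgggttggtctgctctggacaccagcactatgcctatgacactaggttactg
Mgst1: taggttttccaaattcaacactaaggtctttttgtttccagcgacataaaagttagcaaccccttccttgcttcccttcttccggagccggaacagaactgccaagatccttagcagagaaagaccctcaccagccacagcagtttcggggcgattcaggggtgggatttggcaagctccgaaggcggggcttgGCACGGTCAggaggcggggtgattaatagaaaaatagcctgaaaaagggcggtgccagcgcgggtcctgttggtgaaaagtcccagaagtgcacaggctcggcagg
Whether the strains differ in these windows was not tested.

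Among named genes detected in all 6 mice, the largest rises in BALB/c went up to 4.13. That value belonged to E430033B07Rik (10.14 to 11.50 in BALB/c and 6.13 to 7.30 in 129/svj, SE 0.39, adjusted p = 0.000495). Arrdc3, an arrestin-like adaptor of receptor trafficking, was at 10.59, 10.48, and 10.25 in BALB/c and 7.39, 6.99, and 7.11 in 129/svj, a difference of 3.28 (SE 0.16, adjusted p = 1.54e-05). The strains were far apart relative to the spread of their mice, and DBA1, at 10.54, was as high as BALB/c. Serpina6, the corticosteroid-binding globulin, was at 11.43, 10.08, and 9.74 against 7.25, 8.40, and 6.57, a difference of 3.01 (SE 0.54, adjusted p = 0.0151). The mice of each strain were more scattered for Serpina6 than for the other genes of this group, and its call was lost without 129/svj mouse 1 (2.93, adjusted p = 0.0689) and with a trended, robust prior (adjusted p = 0.0689). Rpe, the ribulose-phosphate epimerase of the pentose phosphate pathway, was at 9.17, 9.36, and 9.68 against 6.66, 6.54, and 6.29, a difference of 2.90 (SE 0.18, adjusted p = 4.74e-05). Necap2, an endocytic protein, was at 10.70, 10.77, and 10.83 against 8.14, 7.91, and 7.93, a difference of 2.77 (SE 0.13, adjusted p = 1.36e-05). For Serpina6, Rpe, and Necap2, the DBA1 means of 7.37, 6.69, and 8.04 lay with 129/svj.

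The other genes of this group were Tmem267 (2.62), Oxr1 (2.44), G430005B15Rik (2.38), and Cdkn2b, an inhibitor of cyclin-dependent kinases (2.35), each with an adjusted p of 0.000206 or lower. Tmem267 and G430005B15Rik were at 10.87 and 8.03 in DBA1, close to BALB/c, and differed between 129/svj and DBA1 (adjusted p = 6.74e-06 and 1.06e-05 in the fit of all 3 strains). Oxr1 and Cdkn2b were at 6.67 and 6.18 in DBA1, close to 129/svj. This comparison and the one with BALB/c share the 129/svj mice.

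In the other direction, Pdxdc1, which encodes a protein with a pyridoxal-dependent decarboxylase domain, was at 6.31, 5.87, and 6.31 in BALB/c and 9.76, 10.10, and 9.91 in 129/svj, a difference of -3.76 (SE 0.17, adjusted p = 1.16e-05). A second probe of the gene gave -3.60 (SE 0.19, adjusted p = 2.39e-05) and the remaining one 2.28 (SE 0.14, adjusted p = 4.94e-05), so that the probes of Pdxdc1 were called in opposite directions. Slc15a2, the peptide transporter PEPT2 of the proximal tubule, was at 7.15, 7.35, and 7.50 in BALB/c and 10.85, 11.33, and 10.81 in 129/svj at one probe, a difference of -3.66 (SE 0.18, adjusted p = 1.54e-05). Its second probe read 10.09 to 11.07 in BALB/c and 9.62 to 10.50 in 129/svj, a difference of 0.59 (SE 0.30, adjusted p = 0.377), and the mice of the strains overlapped. Fxyd6, a regulator of the sodium pump, was at 7.12, 7.02, and 7.15 against 10.57, 9.96, and 11.20, a difference of -3.48 (SE 0.28, adjusted p = 0.000213). DBA1 lay at 6.47 for the first probe of Pdxdc1 and at 7.64 for that of Slc15a2, near BALB/c, and below 129/svj for Fxyd6 as well (adjusted p = 0.000703).

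Cd74, H2-DMb2, and Ly6e, genes of antigen presentation and of the lymphocyte antigen 6 family, are among the 10 and are described below with the immune genes. Sec14l3, a lipid-binding protein, was at 6.78, 8.31, and 7.10 against 9.90, 10.20, and 9.80, a difference of -2.57 (SE 0.36, adjusted p = 0.00455), with DBA1 at 10.07, at the level of 129/svj. Gdpd3, a phosphodiesterase of lysophospholipids, differed by -2.39 (adjusted p = 0.000563), Mrps10, a protein of the small mitochondrial ribosomal subunit, by -2.26 (adjusted p = 4.99e-05), and 9630007E23Rik by -2.19 (adjusted p = 8.02e-05). In these last 3, DBA1 lay at 8.97, 8.12, and 6.55, at the level of BALB/c. Of 51 named genes with several tested probes and at least 1 call, 9 had all probes called the same way, 23 had further probes of the same sign, 18 had a probe of the opposite sign that did not pass, and 1, Pdxdc1, had calls both ways.

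**Figure D3:**
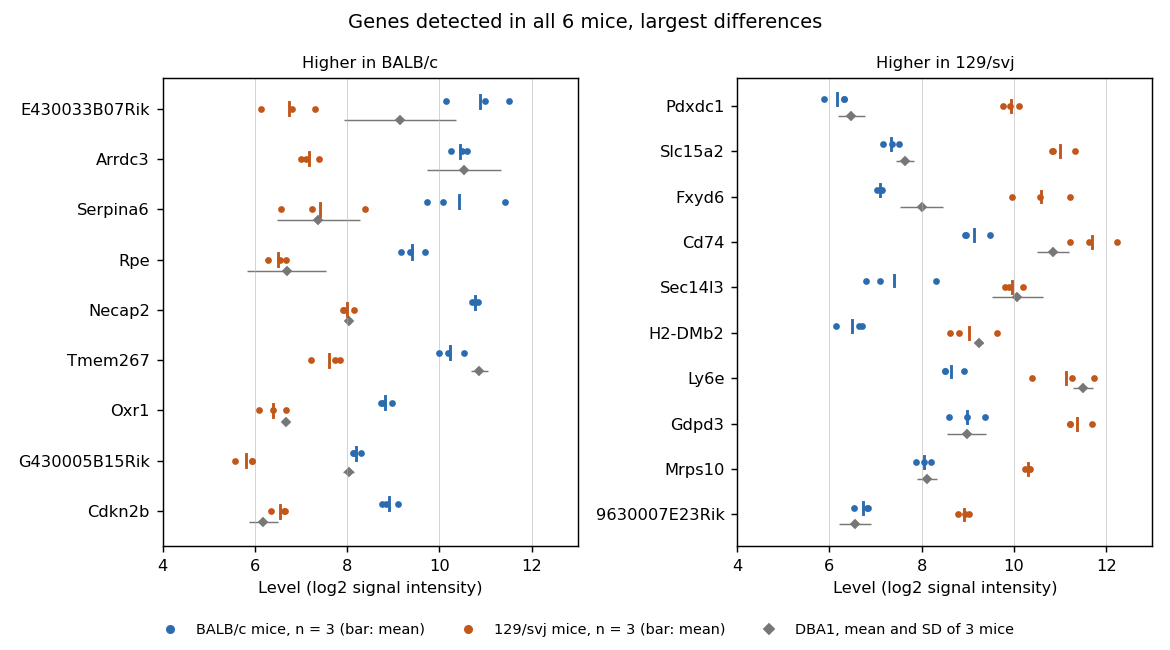
Levels (log2 signal intensity, horizontal axis) of named genes with the largest differences, 9 for BALB/c and 10 for 129/svj, among probes detected in all 6 mice. Points are mice, bars strain means, and diamonds the DBA1 means with their SD. No BALB/c mouse overlaps a 129/svj mouse in any row, which the choice of the largest called differences makes likely. The DBA1 mean lies with BALB/c in some rows and with 129/svj in others.

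A further 305 probes (2.07% of those tested) were detected in all mice of 1 strain but in none from the other, 152 in BALB/c only and 153 in 129/svj only. Of these, 108 and 94 were past the threshold of the fit. Such a probe must differ in the deposited detection p, and its fold is a lower bound. The adjusted p given with it is that of the measured difference. Mgst1, described above, had the highest bound of the genes given here. Cox7a2l, a factor for the assembly of respiratory supercomplexes, was at 10.93, 10.99, and 10.70 in BALB/c and 4.75, 4.67, and 4.95 in 129/svj, at least 37.1-fold higher in BALB/c (adjusted p = 6.28e-07). Its DBA1 mean of 7.39 lay between the strains, and it was detected in all DBA1 mice.

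The bounds of the next genes were at least 15.6-fold for the pseudogene Gpr137b-ps, 13.97-fold for Spink8, a protease inhibitor, 7.39-fold for Lars2, the mitochondrial leucyl-tRNA synthetase, 6.45-fold for Arl5a, a small GTPase, and 5.59-fold for Clasrp, a protein linked to splicing. Each was higher in BALB/c, with adjusted p of 3.49e-05 or lower. Of these genes, Arl5a was undetected in DBA1 as well, and the other 6, Mgst1 and Cox7a2l included, were detected in all DBA1 mice.

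Among the probes detected in 129/svj only, Abhd16a, a phosphatidylserine lipase, had the highest bound of the named genes. Abhd16a was at 5.58, 5.56, and 5.47 in BALB/c and 10.56, 10.44, and 10.47 in 129/svj, at least 27.5-fold higher in 129/svj (adjusted p = 6.28e-07), and DBA1 was at 10.49. Picalm, a clathrin assembly protein, was at 4.97 to 5.604 against 9.88, 9.75, and 9.86, at least 16.7-fold higher (adjusted p = 5.64e-06), and DBA1, at 5.24, did not have it detected. Chchd4, an import receptor of the mitochondrial intermembrane space, was at 5.25, 5.15, and 5.18 against 9.65, 9.54, and 9.63, at least 15.2-fold higher (adjusted p = 1.05e-06), and DBA1 was at 9.63. Thus DBA1 had the level of 129/svj for Abhd16a and Chchd4 and that of BALB/c for Picalm. The others were the pseudogene Pisd-ps3 (at least 11.6-fold), BC018473 (11.4-fold), Lmbrd1, a lysosomal transporter of vitamin B12 (10.8-fold), Pdrg1 (10.25-fold), and Dusp16, a phosphatase of MAP kinases (9.83-fold). Over all named probes of the kind, DBA1 had 38 of the 74 BALB/c-only probes detected in all its mice and 24 in none. Of the 82 named probes detected in 129/svj only, DBA1 had 25 detected in all its mice and 36 in none.

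**Figure D4:**
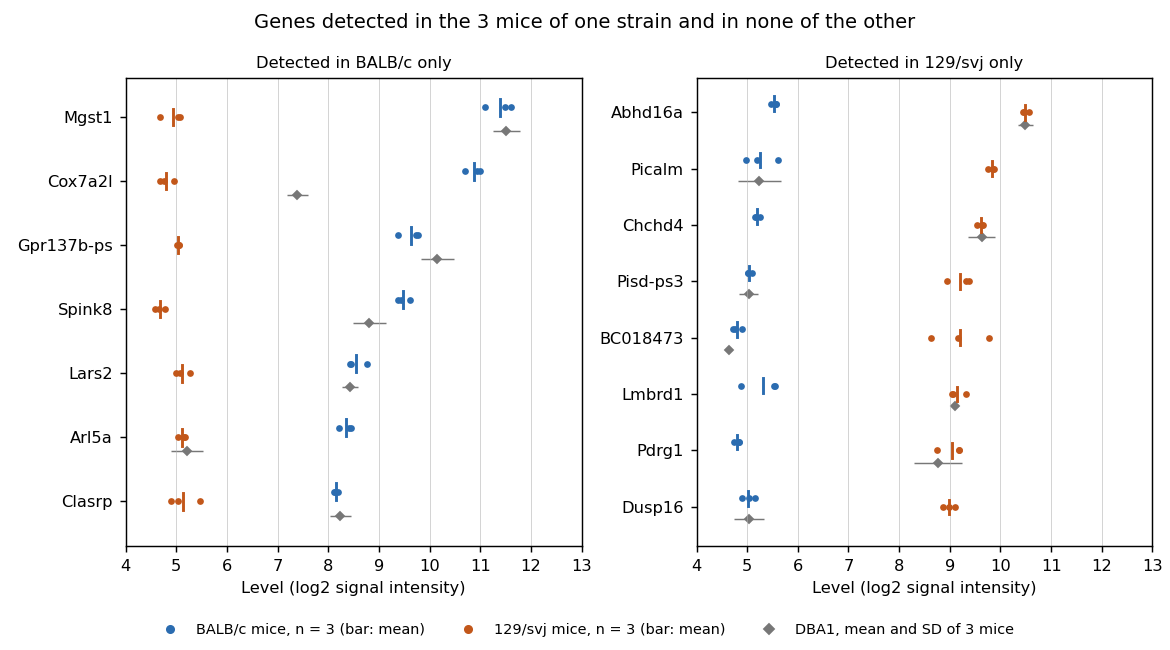
Levels (log2 signal intensity, horizontal axis) of named genes with the highest lower bounds, 7 for BALB/c and 8 for 129/svj, among probes that only one strain had detected, in all its mice. Points are mice, bars strain means, and diamonds the DBA1 means with their SD. Levels near 5 are undetected signal and have no order. Mgst1, at 11.09 to 11.61 in BALB/c, is undetected in 129/svj, and its DBA1 mean (11.51) lies with BALB/c.

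Of the genes of antigen presentation that were called, more were higher in 129/svj than in BALB/c. Class I molecules (H2-K, H2-D, and relatives) show peptides of the cell to T cells, and class II molecules, loaded with the help of the invariant chain Cd74 and of H2-DM, show peptides taken up from outside. Of the 11 tested genes of this list, 5 were called higher in 129/svj (H2-K1, Cd74, Psmb9, H2-Eb1, and H2-T10) and 1 higher in BALB/c (H2-Q7), against 2.92% and 3.09% of all named genes. The median difference of the list was -0.69, and that of all named genes 0.01. The sign of a member did not always hold without 129/svj mouse 3, as for Tapbp, a chaperone of class I loading (-0.28 with and 0.11 without it). Without that mouse, 6 genes of the list were called as well. H2-Eb1 and H2-T10 are named after their values were seen.

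Cd74 was at 8.94, 8.95, and 9.49 in BALB/c and 11.22, 11.63, and 12.23 in 129/svj, a difference of -2.57 (SE 0.27, adjusted p = 0.000966), and of -2.30 without 129/svj mouse 3. A second Cd74 probe gave -2.48 (SE 0.26, adjusted p = 0.000826). H2-Eb1, a class II beta chain, was at 7.69, 7.64, and 8.51 against 9.82, 9.53, and 10.24, a difference of -1.92 (adjusted p = 0.00491), and of -1.73 without that mouse. H2-DMb2, a chain of the class II peptide loader and no member of the list, was at 6.15, 6.63, and 6.71 against 8.80, 8.61, and 9.63, a difference of -2.52 (SE 0.28, adjusted p = 0.00133), and of -2.21 without mouse 3. In all 3 class II genes every 129/svj mouse lay above every BALB/c mouse, and mouse 3 was the highest of its strain. DBA1 was at 10.84 for Cd74 and at 9.24 for H2-DMb2, and between 129/svj and DBA1 neither was called (adjusted p = 0.1599 and 0.813). H2-Eb1 went the other way, since DBA1, at 5.18, had it detected in no mouse and lay below both strains (adjusted p = 4.30e-06 between 129/svj and DBA1).

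In class I, H2-K1 was at 5.11, 4.97, and 5.00 in BALB/c, where no mouse had it detected, and at 8.61, 7.96, and 9.19 in 129/svj, at least 7.50-fold higher (adjusted p = 0.000181). The measured difference of H2-K1 was -3.56, and -3.26 without mouse 3. H2-T10 differed by -1.45 (adjusted p = 0.0087), and by -1.23 without mouse 3, and H2-Q7, undetected in 129/svj, was at least 1.42-fold higher in BALB/c (adjusted p = 0.00299, with a measured difference of 1.08 both with and without mouse 3). BALB/c and 129 mice carry different H2 haplotypes, and a difference in the sequence under these probes cannot be told apart from one in level. H2-D1, the brightest of the list, was at 10.41, 10.42, and 10.37 against 10.76, 10.23, and 11.80, a difference of -0.53 (SE 0.35, adjusted p = 0.5195), and of -0.10 without mouse 3. Psmb9, a subunit of the immunoproteasome, was undetected in BALB/c (5.12, 4.84, and 4.98) and at 7.23, 6.40, and 7.76 in 129/svj, at least 2.73-fold higher (adjusted p = 0.0052). Its measured difference was -2.15, and -1.83 without mouse 3. Psmb8, another subunit, was at 6.60 to 6.88 in BALB/c and 7.33, 6.11, and 8.76 in 129/svj, and Ciita, the regulator of class II genes, at 5.65 to 5.82 and 5.63 to 6.13, and neither passed. Without mouse 3, the difference of Psmb8 moved from -0.69 to -0.01 and that of Ciita from -0.24 to -0.40.

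Promoters of 2 of the class II genes are shown because both were higher in 129/svj. Capitals mark the Y box, CTGATTGG or CCAATCAG on the other strand, an element of class II promoters, which 4.3% of the RefSeq promoters hold. The H2-Eb1 window (chr17:34305617-34305916, plus strand, GRCm38.p6) holds 1 match, beginning 62 bases before the start. The H2-DMb2 window (chr17:34144999-34145298, plus strand) holds no match to these letters. Matches were also found in the windows searched for H2-Aa, of class II, and for H2-K1 and Psmb9, which are not of class II. A link between the match and the strain differences was not tested.
H2-Eb1: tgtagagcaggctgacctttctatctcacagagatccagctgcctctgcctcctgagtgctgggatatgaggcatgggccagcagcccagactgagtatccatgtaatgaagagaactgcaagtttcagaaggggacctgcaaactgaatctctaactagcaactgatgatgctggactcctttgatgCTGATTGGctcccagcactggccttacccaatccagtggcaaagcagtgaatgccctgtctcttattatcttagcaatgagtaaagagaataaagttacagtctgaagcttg
H2-DMb2: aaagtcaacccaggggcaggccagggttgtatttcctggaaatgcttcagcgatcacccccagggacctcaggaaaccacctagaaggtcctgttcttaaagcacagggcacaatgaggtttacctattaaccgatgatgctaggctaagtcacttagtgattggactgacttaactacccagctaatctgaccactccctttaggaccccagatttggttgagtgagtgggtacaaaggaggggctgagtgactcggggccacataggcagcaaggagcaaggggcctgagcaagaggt

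Few markers of leukocytes could be tested, and none of those was called. None of the 5 macrophage genes tested (Cd14, Cd68, C1qa, C1qc, and Csf1r) passed, nor the T cell genes Cd3d and Cd2, nor S100a8 of neutrophils. These were 5 of 21 macrophage, 2 of 15 T cell, and 1 of 13 neutrophil genes listed. Cd3d (5.49 to 5.83) and Cd2 (5.61 to 6.03) lay near the dimmest signals that counted as detected, where a difference could hardly show. Of the B and plasma cell genes, none was tested. Cd14, a receptor for bacterial lipopolysaccharide, was at 7.10, 6.68, and 7.02 in BALB/c and 7.62, 7.06, and 9.46 in 129/svj, a difference of -1.12 (SE 0.53, adjusted p = 0.352), and of -0.41 without 129/svj mouse 3. S100a8 was at 7.89, 7.18, and 8.43 against 8.19, 4.85 (not detected), and 10.004, a difference of 0.15, and of 1.31 without mouse 3. In both genes the 129/svj mice ranged more widely than the BALB/c mice, mouse 3 being highest. The mean level of the 11 antigen presentation genes was 7.85, 7.59, and 8.46 in 129/svj mice 1 to 3 and 6.81 to 6.97 in BALB/c. That mean includes H2-K1 and Psmb9, undetected in BALB/c, and H2-Q7, undetected in 129/svj. The mean of the 5 macrophage genes was 7.16, 6.53, and 8.45 in 129/svj mice 1 to 3 and 6.46 to 7.24 in BALB/c. The part of leukocyte number in the antigen presentation genes was not tested.

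**Figure D5:**
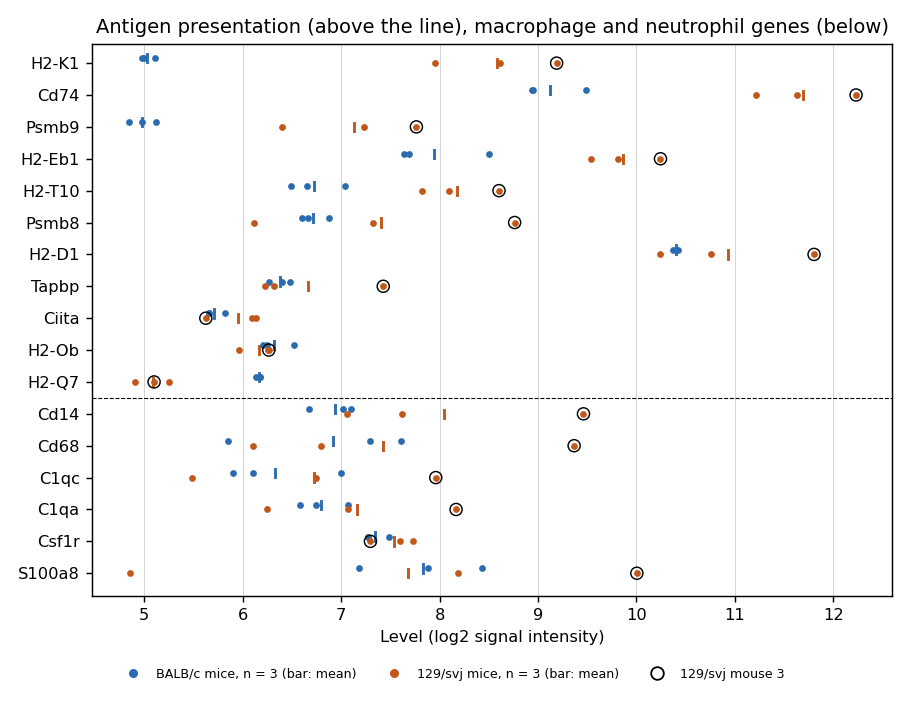
Levels (log2 signal intensity, horizontal axis) of the 11 antigen presentation genes (above the dashed line) and of the macrophage and neutrophil genes tested (below it). Points are mice, bars strain means, and circles mark 129/svj mouse 3. The strains are apart for H2-K1, Cd74, Psmb9, H2-Eb1, H2-T10, and H2-Q7. Mouse 3 lies to the right of the other mice for Cd14, Cd68, and S100a8, and not for Csf1r.

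Ly6e, a membrane protein that interferon induces, was at 8.51, 8.50, and 8.91 in BALB/c and 11.26, 10.38, and 11.73 in 129/svj, a difference of -2.49 (SE 0.32, adjusted p = 0.00295), and of -2.18 without mouse 3. DBA1, at 11.50, was at the level of 129/svj. None of the 4 genes of the interferon list passed. Irf7, a transcription factor of the interferon response and the brightest of them, was at 5.89, 5.75, and 5.90 against 7.33, 6.47, and 8.21, a difference of -1.49 (adjusted p = 0.0674), and of -1.06 without mouse 3, so that the mice did not overlap although the call was not made. Irf7 passed without 129/svj mouse 2 (-1.93, adjusted p = 0.00649) and, with all mice, with DBA1 in the fit (0.0344) or all 8 arrays (0.0407). Of 11 Fc receptor and complement genes, Fcgrt was the one called, against 6.01% of all named genes. Fcgrt is the neonatal Fc receptor that carries IgG through epithelia. It was at 12.83, 12.79, and 12.73 in BALB/c and 13.68, 13.49, and 13.59 in 129/svj, a difference of -0.80 (SE 0.13, adjusted p = 0.0087), and also of -0.80 without mouse 3, while without 129/svj mouse 1 its adjusted p was 0.0502. Fcgr2b (0.28), Fcgr3 (-0.54), and C3 (0.20) did not pass. Without mouse 3 their differences were 0.30, -0.07, and 0.74, and C3 was highest in 129/svj mouse 3, at 12.86. Of 5 chemokines and cytokines, Cxcl12 was called, against the same 6.01%. Cxcl12, which attracts leukocytes through Cxcr4, was at 10.10, 10.11, and 10.13 in BALB/c and 10.99, 11.16, and 11.25 in 129/svj. It differed by -1.02 (adjusted p = 0.00295), and by -0.96 without mouse 3. Its values were tight within each strain, and its second probe gave -0.67 (adjusted p = 0.106). Of 12 NF-kB and Toll-like receptor genes, Nfkb2 was called, again against 6.01% of all named genes. It was undetected in BALB/c and at least 1.45-fold higher in 129/svj. Its measured difference was -1.03 (adjusted p = 0.0308), and -0.84 without mouse 3. That call was lost without any one of the 6 mice (adjusted p from 0.0524 to 0.123) and, with all mice, without background correction (0.0617) or without the filter on dim probes (0.0685).

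In the tubule, genes went both ways. Of 18 proximal tubule genes tested, 2 were higher in BALB/c and 2 higher in 129/svj, against 3.09% and 2.92% of all named genes, with a median difference of 0.21. Slc5a2, the glucose transporter SGLT2 of the early proximal tubule, was at 11.41, 11.33, and 11.54 in BALB/c and 10.26, 9.62, and 9.83 in 129/svj, a difference of 1.52 (SE 0.18, adjusted p = 0.00212). Slc22a6, the organic anion transporter OAT1, was at 7.48, 7.94, and 8.20 against 9.17, 9.54, and 9.10, a difference of -1.40 (SE 0.21, adjusted p = 0.00701). Slc5a2 and Slc22a6 had no overlap between the strains and opposite directions. Slc22a2, the organic cation transporter OCT2, differed by 0.79 (SE 0.18, adjusted p = 0.0403), and its call was lost without BALB/c mouse 1, 2, or 3 (0.1025, 0.149, and 0.125), without 129/svj mouse 1 or 2 (0.06 and 0.0612), and, with all mice, with the first array of mouse 1 alone (0.0575), without the filter on dim probes (0.0697), or with DBA1 in the fit (0.1099). The phosphate transporter Slc34a1 (0.44), the endocytic receptors Lrp2 (0.24) and Cubn (0.27), and the brightest of the list, Slc27a2 (-0.18), did not pass.

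All 13 tested genes of the distal nephron and collecting duct had a positive difference, with a median of 0.56, against 0.01 over all named genes. In 2 of the 13, the mice of the strains did not overlap, against 22.8% of all named genes. The members given here did not pass. Slc12a3, the thiazide-sensitive cotransporter, was at 12.76, 12.74, and 12.79 in BALB/c and 12.15, 12.80, and 11.45 in 129/svj, a difference of 0.64 (adjusted p = 0.3455). Pvalb, also of the distal convoluted tubule, was at 11.71, 11.98, and 11.87 against 11.55, 12.002, and 9.07. In both, 129/svj mouse 2 was as high as BALB/c and mouse 3 was the lowest of all. Mouse 3 was also the lowest of all for Calb1 (9.32) and Wnk1 (7.39). For Aqp2 (10.72) and Aqp3 (8.14) it was the highest of its strain. Slc12a1, the cotransporter of the thick ascending limb, was at 13.26 to 13.53 against 13.17 to 13.53, a difference of 0.07 (SE 0.15). Slc12a3, Pvalb, Calb1, Wnk1, Aqp2, and Aqp3 were named after their values were seen.

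In the renin-angiotensin system, 1 of 4 genes passed, against 6.01% of all named genes. Agt, the angiotensinogen gene, was at 5.44, 4.84, and 5.67 in BALB/c, where 1 of 3 mice had it detected, and at 7.29, 7.10, and 7.44 in 129/svj, a difference of -1.96 (SE 0.22, adjusted p = 0.00149). Ren1, renin, was at 11.84, 11.49, and 12.11 against 12.60, 12.46, and 12.86, a difference of -0.83 (SE 0.19) just outside the threshold (adjusted p = 0.0503). It passed without BALB/c mouse 3 (0.0445) and, with all mice, without background correction (0.0191), with an offset of 50 (0.0264), with DBA1 in the fit (0.0259), with all 8 arrays (0.0196), or with a trended, robust prior (0.0126). Its second probe gave -0.61 (adjusted p = 0.0846). Both genes were highest in 129/svj mice without overlap. The converting enzyme Ace (0.55) had the opposite sign and did not pass.

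Of 11 cholesterol synthesis and uptake genes, 2 were called, and of 14 fatty acid oxidation and peroxisome genes, 2 were called. All were higher in 129/svj, against 2.92% of all named genes called in that direction. The cholesterol list had a median difference of -0.02, with 5 positive and 6 negative members. Sqle, squalene epoxidase of cholesterol synthesis, was at 5.68, 5.20, and 5.09 in BALB/c, where 1 of 3 mice had it detected, and at 8.13, 7.47, and 7.83 in 129/svj, a difference of -2.48 (SE 0.22, adjusted p = 0.000365). Hsd17b7, of the same pathway, differed by -0.96 (SE 0.18, adjusted p = 0.0181), a call lost without any one BALB/c mouse (0.0624 to 0.0727) or 129/svj mouse 1 (0.0583). The other 9 of 11 genes of the list did not pass. Acaa1b, a peroxisomal thiolase, was at 13.23, 13.23, and 13.28 against 13.87, 14.22, and 14.19, a difference of -0.85 (SE 0.14, adjusted p = 0.0121). Its call was lost without BALB/c mouse 1 (0.0537) or 2 (0.0624) and with DBA1 in the fit (0.0771). The median of the 14 fatty acid oxidation and peroxisome genes was -0.18, and the mitochondrial enzymes Cpt2 (0.07, SE 0.15) and Acadvl (0.01, SE 0.14) did not pass. Of 6 cytochrome P450 genes, Cyp4b1 was the one called, against 6.01% of all named genes in either direction.

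Of 12 apoptosis genes, 1 was called in each direction, against 2.92% of all named genes higher in 129/svj and 3.09% higher in BALB/c. Casp9, the initiator caspase of the mitochondrial pathway, was higher in 129/svj and Bik, a BH3-only protein, higher in BALB/c. Casp9 was at 4.96, 4.87, and 4.82 in BALB/c, undetected, and at 8.79, 8.74, and 8.81 in 129/svj, at least 8.57-fold higher (adjusted p = 2.08e-06). A second Casp9 probe gave 0.34 (SE 0.21, adjusted p = 0.496), so that the probes of the gene did not give the same result. Bik was at 8.37, 8.11, and 8.11 against 6.01, 6.26, and 5.97, a difference of 2.12 (SE 0.15, adjusted p = 9.80e-05). Of 9 basement membrane and matrix genes, Sparc, a matrix glycoprotein, was called, against 6.01% of all named genes. It was at 6.41, 6.81, and 6.24 in BALB/c and 5.07, 4.92, and 5.36, undetected, in 129/svj. Sparc was thus at least 1.77-fold higher in BALB/c, and its measured difference was 1.37 (SE 0.19, adjusted p = 0.00452). The basement membrane collagens Col4a4 (-0.01) and Col4a5 (-0.06), which are part of the target tissue of the antibody, and Lama5 (-0.20) did not pass.

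No gene was called among the 5 podocyte, 6 endothelium and mesangium, 6 tubule injury, 4 clock, 3 immediate-early, 6 heat shock, and 4 sex-linked or sex-biased genes tested. The podocyte genes lay between -0.30 and 0.16, and Synpo, the brightest of them, differed by -0.11 (SE 0.14). Flt1, a VEGF receptor of endothelium, differed by 0.12 (SE 0.17). The tubule injury genes had a median of -0.45, and 129/svj mouse 3 had the highest mean of them, 9.97, against 8.70 and 9.14 in its strain and 8.84 to 9.02 in BALB/c. Timp1, a protease inhibitor of that list, was at 7.94 in mouse 3 and 5.88 to 6.49 in the other mice. Across all lists, 29 of 193 distinct genes tested were called (15%), 9 higher in BALB/c and 20 higher in 129/svj. The count was 29 without 129/svj mouse 3 too, but not with the same genes. Cyp4b1 and Nfkb2, for example, lost their calls without that mouse, and Mt1 gained one. The lists were written with earlier results of these data known, and the share of 15% is not a result about them.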

How the data were processed

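RNA of kidney cortex was extracted with Trizol and RNeasy columns, labelled with the Ambion MessageAmp kit, and hybridized to Illumina Mouse WG-6 v1 BeadChips. Each table that the authors deposited holds, per array, non-normalized BeadStudio signal intensities of the probes and, beside them, detection p-values from the negative controls. The version of BeadStudio and its settings are not given in the sources used here. The paper names a Student's t-test and no array normalization.

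Of 46147 probes, 23099 took their symbol from the search key of the other deposited table, 12 from the study's own gene table, 673 had several symbols, and 22363 stayed unnamed here. Of the names, 4633 were updated through RefSeq synonyms. Intensities of the 8 arrays were corrected with limma 3.58.1 in R 4.3.3 (normexp, negative controls inferred through the detection p-values, 16 added), then quantile normalized and taken to log2. Repeat arrays were averaged. Probes detected (p of 0.05 or less) in at least 3 of 6 mice were tested with lmFit and eBayes and Benjamini-Hochberg adjustment. In the gene lists and in the shares of named genes, a gene with several probes was read by its brightest. Among the genes with the largest differences or bounds, it was read by the probe with the largest difference or bound. DBA1 values come from a fit of the 12 arrays of the table. The procedure was tested on simulated data. Python 3.11.15 with pandas 2.3.3 served for the joins.

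The named genes are, by rule, the 10 largest differences in each direction among called probes detected in all mice, the 8 highest lower bounds in each direction among probes detected in one strain only, the Gstm2 probes and oxidation genes, and up to 3 called members in each direction and the brightest of each gene list. Some genes that the rule names are not reported here. Others were named after their values were seen. The members and lists were chosen with earlier results of these data known. Alternatives covered the background correction, offset, normalization, filter, arrays and blocks, variance model, the methods' t-test, a minimum size, and each mouse left out. The number of called probes that also differed between 129/svj and DBA1 is not reported, since both comparisons share the 129/svj mice. The B6 and NZW signals were not used here. The number of arrays limits the precision.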

Additional observations from a re-analysis of the deposited data

How the results depend on the processing

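The 771 called probes were 755 with scaling to the 75th percentile, 893 without background correction, 861 with an offset of 50, 686 without a filter, 777 with DBA1 in the fit, 709 with the first array of mouse 1 only, 891 with all 8 arrays and the mouse as a random block, and 892 with a trended, robust prior. With the replicate block they were 697, of which 621 are among the 771. Same-numbered mice of the strains correlated at -0.01, 0.08, and 0.03 in their deviations from the strain means. Not every mouse correlated best with its own number. With so few mice in each strain, these correlations cannot decide whether the replicate numbers pair the mice. The count became 486 with probes detected in all 6 mice (11724 tested), 491 with a difference of at least 1, 321 under the methods' t-test with Benjamini-Hochberg adjustment (2154 without it), and 476 to 747 with a mouse left out, where fewer mice were used. The 202 called probes detected in one strain only became 109 under that t-test adjusted and 265 unadjusted, and 153 to 183 with a mouse left out. By construction, no such probe exists among those detected in all 6 mice. For Gstm2, probe scl014863.1_325-S kept its difference of 0.7409 but lost its call with the replicate block (adjusted p = 0.0552), under the adjusted t-test (0.0757), and by the minimum size, and lay between 0.6404 and 0.8278 with a mouse left out. The other Gstm2 probes were past the threshold under every alternative run, at 1.1715 to 1.3625 and 0.9429 to 1.1417. Of the 59 other named probes past the threshold, 54 were past it under each alternative but the adjusted t-test (under which 19 lost their call), the minimum size, and the mice left out, and none changed direction under any alternative run. The replicate block ended the calls of Cyp4b1 (0.0552) and Slc22a2 (0.0792) and of no other among these, and made those of Ren1 (0.0312) and Irf7 (0.0432). Over the gene lists, 29 genes were called with the 75th percentile scaling and with all tested probes too. Except where fewer probes or mice were used, the cause of a lost call was not tested. Where a probe is not above background, the fold is limited by the signal over background and given as a bound.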

Other observations

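Of the 3686 tested probes for which the other table gives one chromosome, 214 were called (5.81%). The share was 9.27% on chromosome 1 (19 of 205 probes), 8.98% on chromosome 7, 8.84% on chromosome 19, and 8.14% on chromosome 17, and 2.35% on chromosome X and 2.48% on chromosome 13. On chromosome 19, 1 of the 13 called probes was higher in BALB/c and 12 in 129/svj. The probes of a chromosome are not independent, and no test of these shares was made.

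Cyp24a1, the vitamin D 24-hydroxylase, differed by -1.82 (SE 0.93, adjusted p = 0.3875 in limma), a large difference among scattered mice. Timd2, an immunoglobulin-domain receptor of the kidney, differed by 1.85 (SE 0.45) and was just outside the threshold (adjusted p = 0.0579). Pex11a, a peroxisomal membrane protein, differed by -0.77 (SE 0.21, adjusted p = 0.087). These genes were named after their values were seen.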
